A study of Homo sapiens with 38 samples.

Results

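Folate one-carbon metabolism was followed here through 8 enzymes, TYMS, SHMT1, SHMT2, MTHFD1, MTHFD2, MTHFD1L, MTR and MTRR, taken by name from 2 pooled CRISPR screens and from 1 RNA-seq experiment. They were 8 of 18029 genes and 30 of 66890 guides in the screen table of Hep3B, 8 of 18036 genes and 31 of 66582 guides in that of SNU-398, and 8 of 58735 genes in the RNA-seq table. The genes were taken by name, and the set was chosen with earlier results of these data known. Hep3B and SNU-398 are human hepatocellular carcinoma (HCC) lines. Cas9-expressing cells of both lines carried the TKOv3 knockout library and were sampled before treatment (T0) and after 14 days with Sorafenib, Regorafenib, Lenvatinib, Erastin, Abemaciclib or Palbociclib. The eighth group of each line is labelled T1 and serves as the comparator of the inhibitors; the methods describe a vehicle-treated group, and T1 is the label left for it. Every group held 2 libraries, giving 32 screen libraries, and the inhibitors were given at concentrations meant to be equally toxic whose values were not used here, so responses to different drugs stand side by side and are not compared. The RNA-seq compared 3 libraries labelled Hep3B, wild type, with 3 labelled Hep3B, PSTK-/-. In the latter, the Cas9 cells had received a lentivirus with a pair of guides against PSTK and were kept as a selected population; PSTK encodes a kinase of the selenocysteine pathway.

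Tetrahydrofolate carries single carbon units between serine, purines, thymidylate and methionine. SHMT2 releases a unit from serine in mitochondria, MTHFD2 oxidises it and MTHFD1L sets it free as formate, which MTHFD1 in the cytosol puts back on folate. SHMT1 is the cytosolic counterpart of SHMT2. TYMS spends a unit to make thymidylate, and MTR, the cobalamin-dependent methionine synthase that MTRR keeps active, spends one to remethylate homocysteine. SHMT2, MTHFD2 and MTHFD1L are called mitochondrial below and the other 5 members cytosolic; TYMS and SHMT1 also enter the nucleus.

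Some libraries and labels limited what could be read. Screen libraries held 11198022 to 46376708 guide counts and RNA-seq libraries 15404153 to 16851558 gene counts. In 14 of the 16 screen groups the 2 libraries differed by little more than counting noise (chi-square per guide 1.26 to 1.49 on halved counts, as most counts were even numbers); the value was 2.03 for SNU-398 Sorafenib and 18.1 for SNU-398 Erastin. Erastin replicate 2 of SNU-398 had a median correlation of 0.939 with the Hep3B libraries and 0.936 with the other groups of its own line. Its correlation with Erastin replicate 1 was 0.953. Over the 26 libraries taken after T0 outside the SNU-398 Erastin group, the median correlation with the other line was at most 0.9152. For Erastin replicate 1 of SNU-398 it was 0.859. Member values that rest mainly on Erastin replicate 2 of SNU-398 are given with and without it, and NormZ counts over all screens include it. In the RNA-seq, PSTK itself did not separate the groups, with 76, 84 and 64 counts in the libraries labelled wild type and 63, 71 and 87 in those labelled PSTK-KO (log2 fold change -0.06 ± 0.18 SE, adjusted p = 0.84 by edgeR). Where in the gene the deletion lies was not used here, so a count over the whole gene does not test the label. Of 10 hepatocyte markers, 8 never exceeded 11 counts; AFP had 0 to 3, TTR 0 and APOA1 0 to 2, ALB had 24 to 37 counts in the wild-type and 0 to 1 in the PSTK-KO libraries, and HNF4A 237 to 449. The marker data go against the label Hep3B; why was not tested, and PSTK-KO and control below mean the libraries so labelled.

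In the libraries labelled PSTK-KO the transcripts of 2 mitochondrial enzymes were higher than in the control and those of 4 cytosolic enzymes were lower. MTHFD2 rose to 1.29 times its control level and SHMT2 to 1.12 times, while SHMT1 fell to 0.657, MTR to 0.808, MTHFD1 to 0.843 and TYMS to 0.868 times theirs. MTRR was the cytosolic exception, at 1.13 times, and MTHFD1L the mitochondrial one, at 0.919 times without passing the test. In all, 3 members were higher and 4 lower at an adjusted p under 0.05, where the same test called 15.6% of 15370 genes higher and 17.2% lower. The median log2 fold change was 0.17 over the 3 mitochondrial and -0.25 over the 5 cytosolic members, against -4.8e-05 over all genes tested. Regardless of sign, the median size of the log2 fold change over all genes tested was 0.19. SHMT2 (0.17), MTRR (0.17) and MTHFD1L (-0.12) changed by less than that. Values in control and PSTK-KO libraries did not overlap for 7 of the 8 members, as for 42.7% of all genes tested. In such bulk RNA, fewer cells of a type and less RNA per cell cannot be told apart.

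SHMT1 showed the largest change of the 8. Its FPKM (fragments scaled to gene length and library size, a level per length) was 8.67, 8.0 and 8.81 in the control libraries and 5.48, 5.52 and 5.79 in the PSTK-KO libraries. Every PSTK-KO library lay below every control library, and the log2 fold change was -0.60 ± 0.07 (SE, n = 3 per group, edgeR adjusted p = 1.2e-08). The gene lies at chr17:18327860-18363563 on the minus strand in GRCh38, as the table gives it, and overlaps SMCR8 on the other strand, which had 839 to 1145 counts per library against 632 to 1009 for SHMT1; how strand was used in counting is not given in the sources used here. Its mitochondrial counterpart SHMT2 stood at 40.8, 35.3 and 39.0 FPKM in the control and at 43.2, 43.3 and 42.8 in the PSTK-KO libraries. All 3 PSTK-KO values were above the controls, by a margin smaller than the spread of the controls (38.4 ± 2.76 SD, n = 3). The log2 fold change of SHMT2 was 0.17 ± 0.05 (edgeR adjusted p = 0.017), and the call was lost without control replicate 2 (adjusted p = 0.11) and without PSTK-KO replicate 1 (0.052) or 2 (0.058).

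MTHFD2 and MTHFD1L, consecutive steps of the mitochondrial arm, went separate ways. MTHFD2 had 29.2, 32.9 and 29.8 FPKM in the control and 39.0, 41.6 and 38.7 in the PSTK-KO libraries, a log2 fold change of 0.37 ± 0.05 (edgeR adjusted p = 1.8e-06). No PSTK-KO value came near the control range. MTHFD1L had 31.5, 30.2 and 30.9 FPKM in the control and 28.6, 28.0 and 28.8 in the PSTK-KO libraries. These ranges did not overlap either, yet the log2 fold change of -0.12 ± 0.05 missed the threshold (edgeR adjusted p = 0.071). The cytosolic MTHFD1, which takes up the formate that MTHFD1L releases, fell from 25.1, 26.7 and 26.4 to 22.7, 22.3 and 21.2 FPKM (log2 fold change -0.25 ± 0.05, edgeR adjusted p = 0.00022). It overlaps ZBTB25 on the other strand, with 454 to 647 counts per library against 3364 to 4150.

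The enzymes that spend carbon units were mostly lower. MTR had 9.95, 9.15 and 8.88 FPKM in the control and 7.47, 7.81 and 7.38 in the PSTK-KO libraries, all below the lowest control (log2 fold change -0.31 ± 0.06, edgeR adjusted p = 9.5e-05). TYMS had 22.01, 20.3 and 20.5 against 18.5, 18.4 and 17.8 FPKM, also without overlap (-0.20 ± 0.07, edgeR adjusted p = 0.019). The TYMS call was lost without control replicate 1 (adjusted p = 0.084) and without PSTK-KO replicate 2 (0.053) or 3 (0.095), and TYMS shares its locus with ENOSF1 on the other strand, which had 853 to 1129 counts against 725 to 869. MTRR, which reactivates MTR, went the other way, from 21.5, 24.4 and 21.7 to 26.0, 27.0 and 23.5 FPKM. One PSTK-KO value lay inside the control range; the log2 fold change was 0.17 ± 0.06 (edgeR adjusted p = 0.022), and the call was lost without control replicate 1 (0.11) or 3 (0.065) and without PSTK-KO replicate 1 (0.084) or 2 (0.16). MTRR overlaps FASTKD3 on the other strand, with 689 to 857 counts against 2213 to 2878.

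Ranked by FPKM in the control libraries, SHMT2 came first at 38.4 ± 2.76 (SD, n = 3), followed by MTHFD1L at 30.9 ± 0.661 and MTHFD2 at 30.7 ± 2.00, which did not differ beyond their spread. MTHFD1 (26.1 ± 0.823), MTRR (22.6 ± 1.57) and TYMS (20.9 ± 0.941) came next, and MTR (9.33 ± 0.555) and SHMT1 (8.49 ± 0.432) last. The 3 mitochondrial enzymes thus had the highest levels per length, and in the PSTK-KO libraries they kept the first 3 places, with MTHFD2 (39.8 ± 1.56) now above MTHFD1L (28.5 ± 0.457). The ratio of the mitochondrial to the cytosolic serine hydroxymethyltransferase, SHMT2 over SHMT1, was 4.52 ± 0.161 in the control and 7.71 ± 0.272 in the PSTK-KO libraries (SD, n = 3 each). On the log2 scale it was 2.23, 2.14 and 2.15 in the control and 2.98, 2.97 and 2.89 in the PSTK-KO libraries, a difference of 0.77. The sum of MTHFD2 and MTHFD1L over MTHFD1 was 1.27, 1.24 and 1.20 on the log2 scale in the control and 1.58, 1.64 and 1.67 in the PSTK-KO libraries, a difference of 0.39. For both ratios the groups did not overlap, and the exact two-sided permutation test gave p = 0.1, the smallest value that 3 against 3 allows.

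Other genes of the pathway were read from lists chosen by function, beside 15.6% of all genes called higher and 17.2% lower. Of 7 genes of serine synthesis and uptake, all tested, 5 were higher and 2 lower. PHGDH, which opens the serine pathway, rose from 10.7 to 28.5 CPM (counts scaled to library size; log2 fold change 1.41), PSAT1 from 127 to 202 (0.67) and the glutamine and serine carrier SLC1A5 from 122 to 158 (0.37), while the mitochondrial carrier SFXN3 fell from 133 to 99.9 (log2 fold change -0.41). Of 10 tested genes among 13 other folate enzymes, none was higher and 1 was lower, DLD (log2 fold change -0.22), a subunit shared by several mitochondrial complexes. MTFMT, which formylates the mitochondrial initiator tRNA, was at -0.20 (edgeR adjusted p = 0.16) and GART, of purine synthesis, at 0.09 (0.19), and neither passed the test. Among 7 tested genes of folate transport and retention, 3 were lower and 1 was higher. The folate receptor FOLR1 fell from 2518 to 946 CPM (log2 fold change -1.41), GGH (-0.24) and FPGS (-0.19), which remove and add the glutamate tail, were also lower, and the reduced folate carrier SLC19A1 was higher (0.30).

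**Figure D1:**
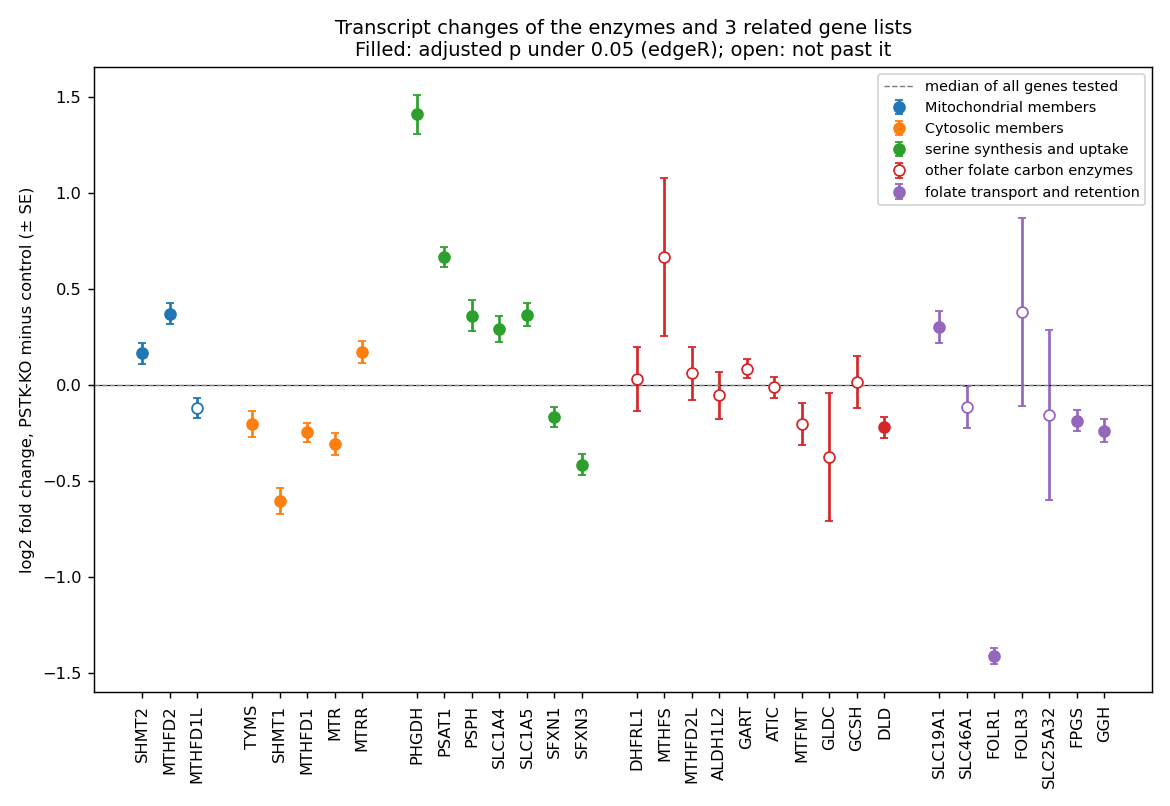
Log2 fold change of PSTK-KO over control with its SE (edgeR) for the 8 enzymes and for 3 lists of related genes; filled points passed an adjusted p of 0.05 and the dashed line is the median of all genes tested. MTHFD2 and SHMT2 lie above 0 and 4 of the 5 cytosolic members below it, and PHGDH and FOLR1 mark the ends at 1.41 and -1.41.

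Counts in lists that touch the members' substrates stand beside the same 15.6% and 17.2% of all genes. In the methionine cycle and transsulfuration list, 2 of 9 tested genes were higher, MAT2A (log2 fold change 0.19) and MTAP (0.26), and AHCYL1 was lower (-0.14). Of 8 tested genes of cobalamin supply, MMAB was lower (-0.55) and ABCD4 higher (0.24). Of 10 genes of dTMP and deoxynucleotide supply, RRM2 (-0.18) and RRM1 (-0.14), the subunits of ribonucleotide reductase, were lower and none was higher. Of 19 S phase genes 11 were lower and 1 was higher, with MCM6 (-0.64), MCM5 (-0.55) and MCM2 (-0.41) below 0 and CCNE1 (0.59) above it; the part of S phase genes in the fall of TYMS and SHMT1 was not tested. Of 17 genes of the ATF4 response, a list that overlaps the serine pathway in function, 12 were higher and 4 lower: STC2 (1.61), WARS (0.72) and DDIT3 (1.54) were higher and ATF3 (-0.60) was lower. Of 15 markers of blood, fibroblasts and endothelium, 5 could be tested and 4 were lower, among them COL1A1 (-0.55), DCN (-1.86) and VWF (-0.66); their summed level was 51.2 to 56.6 CPM in the control and 36.1 to 38.4 in the PSTK-KO libraries, PTPRC, CD3E and KDR were at 0 throughout, and their part in the members' changes was not tested. The 10 hepatocyte markers summed to 26.3 to 31.1 and 15.7 to 19.8 CPM; HNF4A (-0.67) and ALB (-5.99, with 0 to 1 counts in the PSTK-KO libraries) were lower and FGB (2.55, at most 11 counts) was higher.

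Windows of 250 bases before the transcription start were taken from RefSeq (GRCh38.p14) for TYMS, SHMT1, MTHFD1, MTHFD2, MTHFD1L and MTR, 6 of the 8 members, which gave 10 windows; SHMT2 and MTRR were not matched. For MTR, MTHFD2 and SHMT1 the part outside the gene's annotated span is shown, and for MTHFD1L 30 bases inside it, because members of one pathway moved in opposite directions in the RNA-seq. Capitals mark the letters searched on both strands: TGATGNAA, an ATF4 and C/EBP type motif held by 3.16% of all 34788 windows, CACGTG, an E-box held by 6.31%, and the E2F type motifs TTTGGCGC and TTTCCCGC held by 0.549% and 1.39%. CCAAT, searched as well and not capitalised, was in 32.0% of windows. The first stretch lies before MTR and holds the reverse complement of TTTCCCGC, and those before MTHFD2 and SHMT1 hold none of the 4. The last is a short stretch before a start that lies inside the annotated span of MTHFD1L, with TGATGNAA in capitals.
MTR, chr1:236795031-236795280, plus strand: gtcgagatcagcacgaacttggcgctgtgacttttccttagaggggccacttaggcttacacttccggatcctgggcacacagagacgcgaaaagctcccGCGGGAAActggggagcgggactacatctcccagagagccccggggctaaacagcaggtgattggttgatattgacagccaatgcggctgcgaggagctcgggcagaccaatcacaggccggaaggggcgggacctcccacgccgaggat
MTHFD2, chr2:74198365-74198561, plus strand: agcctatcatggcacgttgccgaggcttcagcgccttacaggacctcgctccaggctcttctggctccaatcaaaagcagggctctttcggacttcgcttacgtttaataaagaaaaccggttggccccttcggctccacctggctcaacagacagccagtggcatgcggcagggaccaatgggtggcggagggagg
SHMT1, chr17:18363564-18363800, minus strand: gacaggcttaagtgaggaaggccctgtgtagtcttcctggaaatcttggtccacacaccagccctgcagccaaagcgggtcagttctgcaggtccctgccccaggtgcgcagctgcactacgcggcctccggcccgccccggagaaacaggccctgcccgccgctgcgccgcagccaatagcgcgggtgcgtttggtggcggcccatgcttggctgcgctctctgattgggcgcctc
MTHFD1L, chr6:150866346-150866375, plus strand: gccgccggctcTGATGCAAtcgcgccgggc
CACGTG was also found in the window of MTHFD1 and in 2 of the 4 windows of MTHFD1L, and TTTCCCGC in that of TYMS. The motif TGATGNAA was in the same 2 overlapping windows of MTHFD1L and not in its other 2, nor in that of MTHFD2. The matches describe these letters and no binding was measured.

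The screens ask whether cells that lose an enzyme become rarer or more frequent under an inhibitor. For each gene the guide ratios of inhibitor over T1 were turned into NormZ, a sum of guide z-scores; a gene below 0, whose knockout cells became rarer, with a one-sided p under 0.01 is called a resister and one above 0 a sensitizer. Among the 8 enzymes MTR made the most calls in Hep3B, where it was a resister under 5 of 6 inhibitors, and MTHFD1 was one under Sorafenib. No member was a resister in SNU-398, where SHMT1 was a sensitizer under Sorafenib. Other settings did give resisters there: MTRR under Abemaciclib (-2.55) and Palbociclib (-2.76) with only guides of a mean T1 count of at least 30, and MTR under Lenvatinib (-2.334) without T1 replicate 1. The 6 scores of a gene in one line share the same 2 T1 libraries and are not independent, and the median NormZ over all genes was itself -0.60 to -0.36 in the Hep3B screens. This made 6 resister calls in 96 member screens, 6.25%, when 4.49% of all gene screens gave one, and 1 sensitizer call, when 0.675% did. NormZ had a mean below 0 over all genes in each of the 12 screens (-0.67 to -0.11). After removing that mean and dividing by the SD over genes, which is called standardised here and was added after the data were seen, 2 resister calls remained against 1.68% of all gene screens, both of MTR in Hep3B, and the 1 sensitizer call against 0.84%. The count of resister calls was 3 without replicate 1 and 1 without replicate 2 of every group.

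The share of all genes called resisters in Hep3B was 4.9% under Palbociclib, 6.24% under Sorafenib, 4.27% under Regorafenib, 5.36% under Lenvatinib, 6.01% under Abemaciclib and 4.86% under Erastin. MTR had NormZ of -3.45 under Palbociclib, -3.41 under Sorafenib, -2.85 under Regorafenib, -2.72 under Lenvatinib, -2.47 under Abemaciclib and -1.36 under Erastin in Hep3B. The lowest of these ranked 133 among 18029 genes. Standardised, the values were -2.83, -2.62, -2.30, -2.07, -1.75 and -0.84 in the same order, so only Palbociclib and Sorafenib stayed past the threshold. In SNU-398 MTR was below 0 in all 6 screens but past the threshold in none, from -0.28 under Abemaciclib to -2.19 under Lenvatinib. The difference between the lines did not pass its test for any member and inhibitor; for MTR it was largest under Palbociclib, with a z of -1.72 and an adjusted p of 0.82. That test called 0.0166% of all genes for Sorafenib, 0.133% for Regorafenib, 0.0666% for Lenvatinib, 0% for Erastin, 0.0388% for Abemaciclib and 0.0111% for Palbociclib. Median-of-ratios scaling ended the MTR calls under Lenvatinib (-2.18) and Abemaciclib (-1.71). Leaving out replicate 1 ended the same calls, under Lenvatinib (-1.97) and Abemaciclib (-1.72), and leaving out replicate 2 ended all but that under Sorafenib, with -2.34 there, -2.17 under Palbociclib, -1.45 under Regorafenib, -1.88 under Lenvatinib and -1.77 under Abemaciclib.

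**Figure D2:**
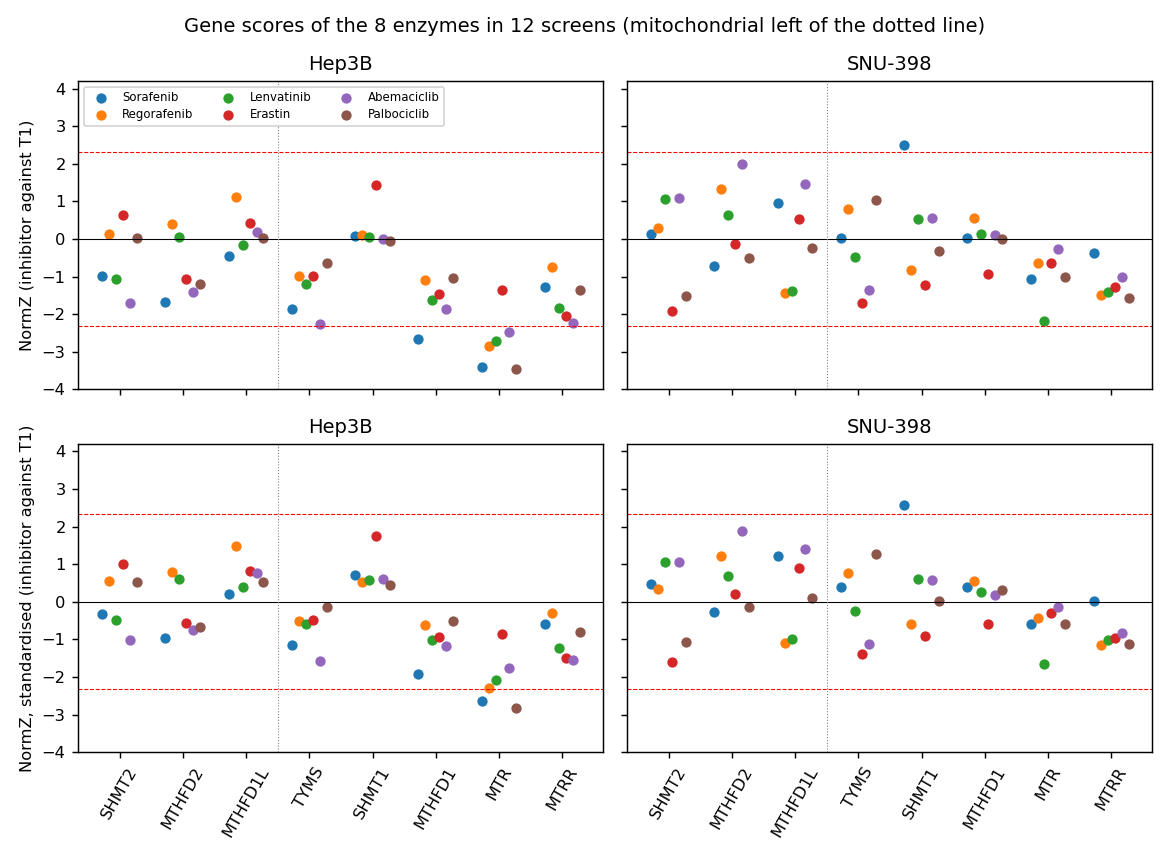
NormZ of the 8 enzymes against T1 for each inhibitor (colours) in Hep3B and SNU-398, as computed (upper panels) and standardised over all genes (lower panels); dashed lines mark a one-sided p of 0.01. The Hep3B points of MTR run from -1.36 to -3.45 in the upper and from -0.84 to -2.83 in the lower panel, and the SNU-398 Sorafenib point of SHMT1 is at 2.49.

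MTR was also the one member with all 4 guides at a mean T1 count of at least 30 in both lines, so its score rests on more than 1 guide. The other members had 0 to 3 such guides, and a guide without T1 counts cannot fall, so ranking MTR above them is limited by coverage. With only such guides MTHFD2 under Sorafenib (-2.54) and MTHFD1 under Abemaciclib (-2.63) were resisters in Hep3B too. The guides are numbered by position and are named in the files as chr1:236966829-236966848 for guide 1, chr1:236972008-236972027 for guide 2, chr1:236973803-236973822 for guide 3 and chr1:236976070-236976089 for guide 4. The build behind these names is not given in the sources used here, and they lie outside the GRCh38 span of MTR in the RNA-seq table, chr1:236795281-236903981. The guides of SHMT2 and MTHFD1 lie outside the GRCh38 spans of their genes too, so the offset is not particular to MTR. Guide 4 held 69.8% of the T1 counts of MTR in Hep3B, with a mean count of 1898.5, and the other 3 had means of 158 to 399. In Hep3B, 23 of 24 combinations of guide and inhibitor were lower than T1 in both library pairs, and edgeR called 17 of the 24 lower and 0 higher. Over all guides tested edgeR called 36.6% lower and 25.6% higher in Hep3B. Of all guides with a mean T1 count of at least 30, 56.3% of combinations were lower in both pairs.

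Guide 1 of MTR fell under each of these inhibitors, with log2 ratios to T1 of -1.60 and -1.96 in the Palbociclib pairs, -1.21 and -1.89 under Sorafenib and -1.15 and -1.37 under Lenvatinib. Guide 4 gave -1.55 and -1.40 under Sorafenib and between -0.82 and -0.60 under Lenvatinib and Abemaciclib. Its raw counts went from 2634 and 1163 in T1 to 814 and 478 under Sorafenib. Guide 2 had its lowest values under Palbociclib and Regorafenib, with -1.54 and -1.45 in replicate 2 against -0.62 and -0.82 in replicate 1. Guide 3 was the single guide above T1, with 0.03 and 0.17 under Erastin. All 4 guides were lower in both pairs under 5 of the 6 Hep3B inhibitors, as were 12.5% of 496 genes with 4 such guides under Sorafenib, 8.67% under Regorafenib, 13.9% under Lenvatinib, 16.9% under Abemaciclib and 7.86% under Palbociclib.

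In SNU-398 the MTR guides disagreed with each other. Of 24 combinations 13 were lower and 8 higher in both pairs, where 44.1% of all combinations were lower. By edgeR 7 were lower and 2 higher, beside 15.6% and 11.6% of all guides; without Erastin replicate 2 they were 8 and 6, beside 24.3% and 18.9%. Guide 2 had log2 ratios of -0.36 to -1.04 under Sorafenib, Regorafenib, Lenvatinib and Abemaciclib, whereas guide 3 was higher in both pairs under all 6 inhibitors, up to 0.93 and 0.89 under Palbociclib. Under Erastin the 2 pairs of guide 1 had opposite signs, 0.12 and -0.49, the second of them from Erastin replicate 2. Without that library the NormZ of MTR under Erastin was -0.01 in place of -0.64. Over the 12 screens the NormZ profiles closest to that of MTR were those of HGS (Pearson r = 0.94), KRTAP9-7 (0.93) and FBXL12 (0.93) among 18025 genes; screens of a line share their T1 libraries, and the values describe these 12 points.

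**Figure D3:**
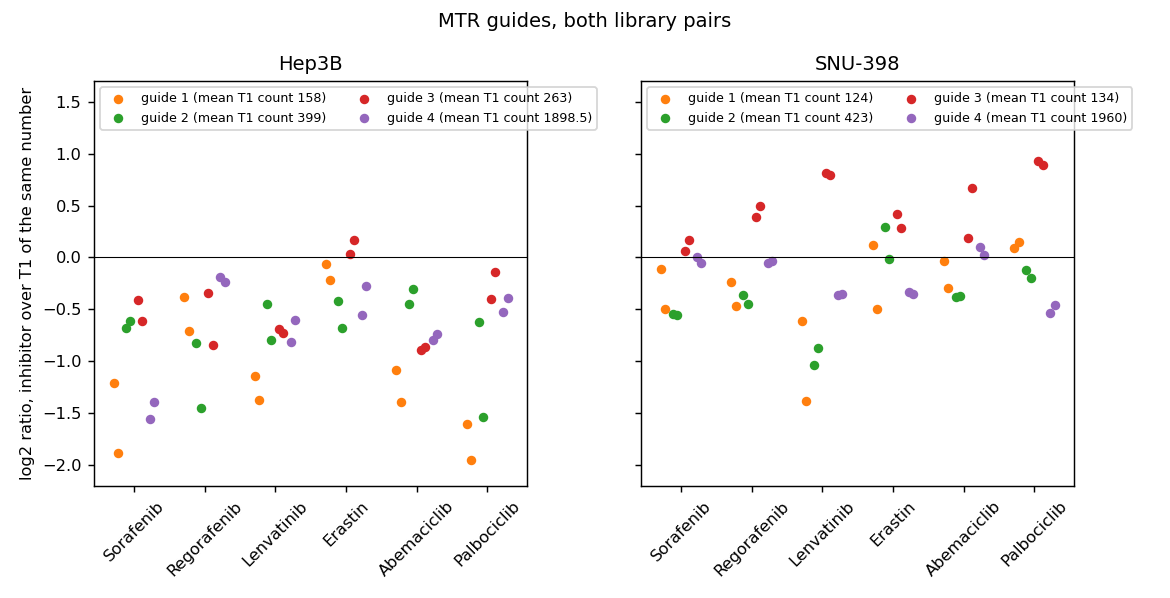
Log2 ratio of each MTR guide, inhibitor over the T1 library of the same number, for both library pairs (2 points per guide and inhibitor) in Hep3B and SNU-398. In Hep3B all points but those of guide 3 under Erastin lie below 0, and in SNU-398 guide 3 lies above 0 under all 6 inhibitors.

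For MTRR, the partner of MTR, NormZ was below 0 in all 12 screens and passed the threshold in none, from -0.38 under Sorafenib in SNU-398 to -2.24 under Abemaciclib in Hep3B. Standardised, 11 of the 12 were below 0. One guide, guide 4, carried 86.2% of its T1 counts in Hep3B and 85.1% in SNU-398. That guide was lower than T1 in both pairs under 5 of 6 inhibitors in each line, with log2 ratios of -2.45 and -1.96 under Abemaciclib in Hep3B; the exceptions were Regorafenib in Hep3B, with 0.46 and 0.65, and Sorafenib in SNU-398, with 0.50 and 0.15. MTHFD1 was below 0 in all 6 Hep3B screens, with -2.66 under Sorafenib (-1.91 standardised, -2.06 without replicate 1 and -1.71 without replicate 2), and between -0.93 and 0.56 in SNU-398. MTHFD1 had that -0.93 under Erastin, and -1.17 there without Erastin replicate 2. Guide 2 held 88.4% of its T1 counts in Hep3B and had log2 ratios of -2.14 and -2.27 under Sorafenib and -2.04 and -1.88 under Abemaciclib, and guide 4 of -2.49 and -2.25 under Lenvatinib. Under Abemaciclib guide 4 lay above T1 in both pairs, at 0.13 and 0.26. In SNU-398 guide 4 of MTHFD1 went up instead, by 1.82 and 1.38 under Lenvatinib and 1.83 and 1.68 under Regorafenib. TYMS was below 0 in all 6 Hep3B screens, from -0.65 to -2.27, and in 3 of 6 SNU-398 screens, and made no call in the main setting. Other settings gave resisters under Abemaciclib in Hep3B. TYMS was one with a pseudocount of 1 (-2.67) or without T1 replicate 1 (-2.37). MTRR was one with a pseudocount of 1 (-2.53) or without T1 replicate 2 (-2.38). MTHFD1 was one with only guides of a mean T1 count of at least 30 (-2.63).

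SHMT1 had no guide with a mean T1 count of at least 30 in either line. In Hep3B its 4 guides summed to 2 and 0 counts in the T1 libraries. Guide 3 went from 34 and 24 counts at T0 to 0 and 0 at T1 and to 86 and 48 under Erastin; no other SHMT1 guide had a count there. Its sensitizer call in SNU-398 under Sorafenib, NormZ 2.49, where 0.627% of all genes were sensitizers, came from guide 4, with 14 and 4 counts in T1 and 306 and 268 under Sorafenib, and guide 3, with 6 and 2 against 46 and 54. The call was lost without T1 replicate 1 (2.21) and without replicate 1 (1.56) or 2 (1.97).

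With all guides, the mitochondrial enzymes gave no call in any screen. With only guides of a mean T1 count of at least 30, MTHFD2 was a resister under Sorafenib in Hep3B (NormZ -2.54) and MTHFD1L a sensitizer under Abemaciclib in SNU-398 (2.54). MTHFD1L ran from -0.45 to 1.13 in Hep3B and from -1.43 to 1.45 in SNU-398, SHMT2 from -1.69 to 0.63 and from -1.92 to 1.08, and MTHFD2 from -1.68 to 0.40 and from -0.72 to 2.00. SHMT2 had its -1.92 under Erastin. Without Erastin replicate 2 that value was -1.02, and the lowest of SHMT2 in SNU-398 was then -1.52 under Palbociclib. MTHFD2 rested on 1 guide, guide 3, with 99.7% of its T1 counts in both lines. That guide was lower in both pairs under all 6 Hep3B inhibitors, with log2 ratios of -0.63 and -0.60 under Sorafenib and -0.06 and -0.07 under Lenvatinib, and stayed within -0.02 and 0.22 of T1 in SNU-398. The median NormZ of the 3 mitochondrial enzymes was above that of the 5 cytosolic ones in all 6 Hep3B screens and in 5 of 6 SNU-398 screens. Under Sorafenib in Hep3B the medians were -0.99 and -1.87, under Erastin 0.44 and -1.36, and in the exception, Palbociclib in SNU-398, -0.50 and -0.32. These 12 medians share their T1 libraries within a line and rest on few guides, and no test was made.

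Summed guide counts, tested with edgeR, gave more calls. In Hep3B, over 48 combinations of member and inhibitor, 25 were lower and 11 higher, while 37.5% of all genes were called lower and 32.8% higher, and 53.6% to 73.8% of guides without a human target were called in either direction. The p-values measure the spread between the 2 libraries of a group, which may be technical. In Hep3B, MTR and MTHFD1 were lower under all 6 inhibitors, MTR by a log2 fold change of -0.28 under Erastin to -1.03 under Sorafenib and MTHFD1 by -0.30 under Regorafenib to -1.91 under Sorafenib; the MTHFD1 call under Regorafenib was lost without T1 replicate 1 (edgeR adjusted p = 0.053). MTHFD1L was higher in Hep3B under 5, by 0.28 to 0.58, and its value under Sorafenib went from 0.28 to 0.08 (edgeR adjusted p = 0.38) with scaling to the library total. These sums hide MTHFD1L guides that disagreed. Of its 3 guides with a mean T1 count of at least 30, 1 was lower in both pairs under each of Sorafenib, Palbociclib and Abemaciclib. Guide log2 ratios ran from -1.99 to 0.85, from -1.91 to 0.84 and from -0.93 to 0.77 under these inhibitors. MTHFD2 was lower in Hep3B under every inhibitor but Lenvatinib (0.07). MTRR was lower under every inhibitor but Regorafenib. SHMT2 was lower under Abemaciclib (-1.69) and higher under Sorafenib (0.52), Regorafenib (0.69) and Palbociclib (0.86). TYMS was lower under Sorafenib (-0.39) and Abemaciclib (-0.77) and higher under Palbociclib (0.60), and SHMT1 was higher under Erastin (6.06). Leaving out 1 T1 library ended the Sorafenib calls of MTRR and SHMT2 and the Palbociclib call of MTRR. In SNU-398, 7 combinations were lower and 5 higher (15.1% and 13.3% of all genes), and 13 and 11 without Erastin replicate 2 (25.3% and 23.5%). Guides without a human target were called there at 2.75% to 44%, and at 13.8% to 56.9% without that library. Under Sorafenib SHMT1 (3.51), SHMT2 (0.48) and MTHFD1L (0.38) were higher in SNU-398, and under Lenvatinib MTHFD2 (0.21) was. The SHMT2 and MTHFD1L calls under Sorafenib were lost without either T1 or either Sorafenib library. SHMT2 was lower in SNU-398 under Erastin (-0.63, and -0.51 without Erastin replicate 2). MTR was lower there under Lenvatinib (-0.36), Palbociclib (-0.27) and Erastin (-0.17, a call lost without Erastin replicate 2), and MTRR under Lenvatinib (-1.55), Palbociclib (-1.42) and Regorafenib (-1.39). The MTRR call under Palbociclib was lost without either T1 or either Palbociclib library (edgeR adjusted p 0.085 to 0.14), that under Regorafenib without T1 replicate 1 (0.070) or Regorafenib replicate 1 (0.13), and that under Lenvatinib without Lenvatinib replicate 1 (0.090). MTHFD1 was higher there under Regorafenib (0.39), a call lost without either T1 library or Regorafenib replicate 2 (edgeR adjusted p 0.14 to 0.26), and was lower under none of the inhibitors; without Erastin replicate 2 it was lower under Erastin (-0.36) and higher under Sorafenib too (0.36). Leaving out either T1 library of SNU-398 took the counts to 4 lower and 2 higher, either Sorafenib library took the higher calls to 2, Abemaciclib replicate 1 or either Palbociclib library to 3, and leaving out Erastin replicate 1 gave 12 lower and 9 higher.

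Between T0 and T1, before any inhibitor is considered, MTHFD1L was lower in Hep3B, and the calls of the other mitochondrial enzymes rested on single libraries. MTHFD1L fell from 54.3 and 49.9 to 39.1 and 35.9 CPM (log2 fold change -0.46 ± 0.08, edgeR adjusted p = 7.4e-08) and SHMT2 from 16.9 and 17.97 to 14.7 and 11.2 (-0.39 ± 0.14, edgeR adjusted p = 0.014). The SHMT2 call was lost without T1 replicate 2 (-0.23, edgeR adjusted p = 0.24) and without T0 replicate 2 (-0.35, 0.081). MTHFD2 (-0.07) and MTR (-0.14) passed the test with small values, and MTHFD1 (0.36) and TYMS (0.21) were higher. The MTHFD2 call was lost when any one of the 4 libraries was left out (edgeR adjusted p 0.10 to 0.14), and the MTR call without T0 replicate 1 (0.054) or T1 replicate 2 (0.068). TYMS lost its call without T1 replicate 2 (0.13, edgeR adjusted p = 0.26) and without T0 replicate 2 (0.19, adjusted p = 0.12). SHMT1 was lower too, with 60 and 34 counts at T0 and 2 and 0 at T1. The 5 lower and 2 higher calls stand against 33.5% and 29.1% of all genes; they became 3 and 1 without T0 replicate 2, 2 and 1 without T1 replicate 2, and 3 lower without T0 replicate 1. In SNU-398 MTHFD1 fell from 43.4 and 46.0 to 27.3 and 26.8 CPM (-0.72 ± 0.14, edgeR adjusted p = 0.0056) and TYMS from 39.7 and 38.4 to 29.9 and 28.2 (-0.42 ± 0.13, adjusted p = 0.039), the opposite direction to the summed counts in Hep3B, where guides disagreed. These were 2 lower calls and 0 higher, beside 6.74% and 6.33% of all genes; there were 4 lower without Erastin replicate 2 (20% and 19.2% of all genes), 1 without T0 replicate 1, and 0 without T0 replicate 2 or either T1 library. From T0 to T1 edgeR called 54.8% of guides without a human target in Hep3B in either direction, and 21.1% in SNU-398. The difference between the lines was not tested for this comparison.

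**Figure D4:**
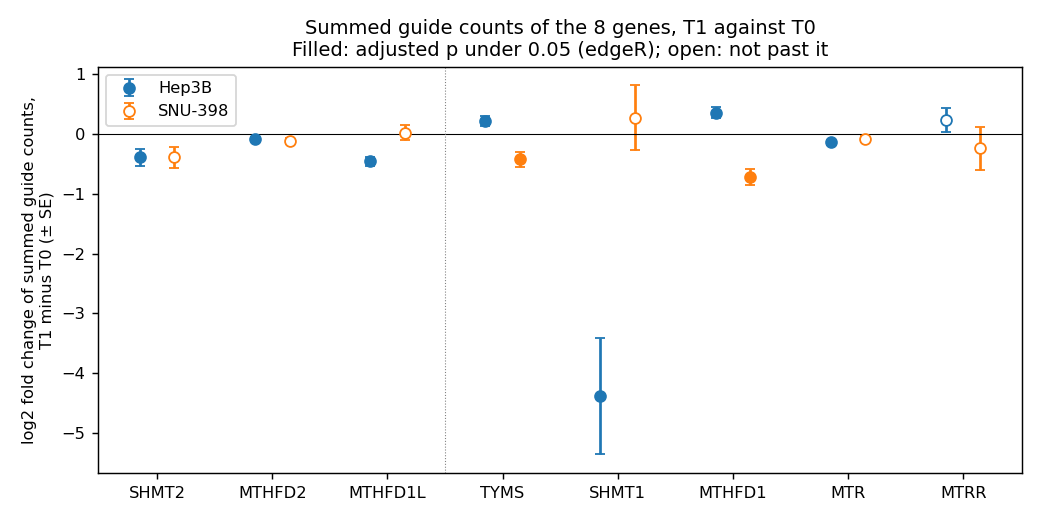
Log2 fold change of the summed guide counts of each enzyme, T1 over T0, with its SE (edgeR) in Hep3B and SNU-398; filled points passed an adjusted p of 0.05. MTHFD1 is at 0.36 in Hep3B and at -0.72 in SNU-398, and the SHMT1 value of Hep3B rests on 2 counts at T1.

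Among the other folate enzymes, GART, the trifunctional enzyme of purine synthesis that uses folate carbon units, was a resister in 11 of 12 screens (7 standardised), with NormZ from -4.69 to -2.08. MTHFS and ATIC were resisters in 1 screen each (none and 1 standardised). The list of 13 gave 13 resister calls in 156 gene screens, 8.33% against 4.49% over all genes, and 8 standardised, 5.13% against 1.68%; GART made 11 of the 13 calls. In the cobalamin list ABCD4 was a resister in 6 screens (5 standardised), MMACHC, which prepares cobalamin for MTR, in 2 (1 standardised) and TCN2 in 2 (none standardised), within 12 calls of 108. The methionine cycle list gave 5 resister calls of 144, led by MAT1A and AHCY with 2 each and MAT2A with 1. Standardised it gave 1, of MAT2A. Serine synthesis and uptake gave 2 of 84 (0 standardised), with PSPH a sensitizer in 2 screens (2 standardised). Folate transport gave 4 of 84, GGH with 3 and FOLR1 with 1; standardised it gave none, and GGH was a sensitizer in 2 screens. Over all genes, 0.675% of gene screens gave a sensitizer call, and 0.84% standardised. The S phase list gave 14 resister calls of 228 (7 standardised) and the ATF4 response 15 of 204 (10 standardised). For dTMP and deoxynucleotide supply there were 3 of 120 (2 standardised). The hepatocyte markers gave 3 of 120 (1 standardised) and the other markers 6 of 168 (3 standardised).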

How the data were processed

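Guide counts of the TKOv3 screens and gene counts of the RNA-seq were deposited by the authors as whole-number counts; guides were assigned with Bowtie2 (version not given in the sources used here), and RNA reads were aligned with HISAT2 2.0.5 and counted with featureCounts 1.5.0-p3. The submitters' notes name a mouse build, while the tables hold human identifiers and GRCh38 positions. The FPKM values were computed by the authors from the gene counts; deposited columns with normalized signal, log2 fold change and p-value hold the authors' own comparison of the RNA-seq and were not used. No column of sample values was left unmapped (0 columns). Most deposited screen counts were even numbers.

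Groups followed the labels. NormZ was computed by the steps of DrugZ: counts scaled to 1e+07 per library, a pseudocount of 5, log2 ratios to the T1 library of the same number, division by the SD of 1000 guides of similar T1 count, and the sum of guide scores over the square root of their number. Standardising over genes was added after the data were seen. The difference between lines was the difference of NormZ over the square root of the number of lines, adjusted over all genes. Summed guide counts, guides and RNA-seq counts were tested with edgeR 4.0.16 (quasi-likelihood, TMM, filterByExpr, Benjamini-Hochberg), with all 16 libraries of a line in one fit. Python 3.11.15 and R 4.3.3 were used, with DESeq2 1.42.0 and limma 3.58.1 for alternatives. The methods call the RNA-seq replicates biological; the 2 libraries of a screen group are not stated to be separate cultures, so their p-values may measure technical spread. The NormZ, screen edgeR and RNA-seq tests were run on simulated counts. For a log2 fall of 1, NormZ recovered 57% of changed genes in Hep3B and 56% in SNU-398. For a log2 change of 1, edgeR recovered 93.8% and 85.7% of changed genes, and 70.9% and 5.68% of changed guides. For a log2 change of 0.5 it recovered 68.4% of changed genes in Hep3B and 13% in SNU-398. In these runs NormZ called 18 unchanged genes in Hep3B and 27 in SNU-398. There edgeR called 9 and 2 unchanged genes, and 6 and 0 unchanged guides. In the deposited counts under inhibitors, edgeR called 53.6% to 73.8% of guides without a human target in Hep3B. In SNU-398 it called 2.75% to 44% of them. Whether the recovery rates hold for the deposited counts was not tested.

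All 8 members are named; other genes were named by rule (per list the 3 smallest adjusted p in the RNA-seq and one called gene going against the rest, and up to 3 genes with the most screen calls; for likeness the 3 highest correlations). Members and 10 lists were chosen with earlier results of these data known, and some genes are not reported here. Guide sequences were not used here.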

Additional observations from a re-analysis of the deposited data

How the results depend on the processing

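Resister calls of the members over 12 screens numbered 6, 10 when only guides with a mean T1 count of at least 30 were used, 2 standardised and 1 to 8 with libraries left out. The 1 sensitizer call became 0 with a pseudocount of 1 and ranged from 0 to 1 with libraries left out. With libraries left out, the edgeR counts from T0 to T1 ranged from 2 to 4 lower and 1 to 2 higher in Hep3B and from 0 to 4 lower and 0 higher in SNU-398. Under inhibitors, genes ranged from 23 to 26 lower and 9 to 11 higher in Hep3B and from 4 to 13 lower and 2 to 11 higher in SNU-398, where DESeq2 gave 9 higher against 5. Guides ranged from 58 to 66 lower and 17 to 20 higher in Hep3B and from 9 to 46 lower and 5 to 34 higher in SNU-398. RNA-seq calls of members ranged from 1 to 3 higher, with 1 without PSTK-KO replicate 1 or 2, and from 3 to 4 lower. MTHFD2 under Lenvatinib in Hep3B changed sign with scaling to the library total (-0.055). Causes were not tested beyond the smaller number of samples or guides.

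The ratios kept their direction, with differences of 0.76 to 0.80 for SHMT2 over SHMT1 and 0.37 to 0.42 for the other with libraries left out. Same-numbered samples did not pair: correlations of deviations were 0.05, 0.24 and -0.02 in the RNA-seq, at most 0.03 in Hep3B and at most 0.14 in SNU-398. A replicate block gave 3 higher and 5 lower members in the RNA-seq, adding MTHFD1L (adjusted p = 0.037, edgeR), and 24 lower members under inhibitors in Hep3B and 9 in SNU-398. NormZ without the pairing gave 6 resister and 1 sensitizer calls. In the RNA-seq TYMS (DESeq2 adjusted p = 0.060) and MTRR (limma on FPKM, 0.095 and 0.093) lost their calls. Low guide counts limit SHMT1, MTHFD2 and MTRR.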
